A study of Mus musculus with 6 samples.

Results

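The 34 genes described here encode the immediate early transcription factors of the AP-1, EGR and NR4A families, the IER proteins and Csrnp1, the mRNA decay factors of the ZFP36 family, Gadd45a and Gadd45b, and the feedback inhibitors of MAP kinase signalling of the Dusp, Spry and Spred families. They were taken by symbol from the deposited table of raw counts, which has 17523 rows, and all 34 were found. The RNA came from FACS-sorted bone marrow cells of C57BL/6 mice, which the series calls hematopoietic stem cells. It compared 3 libraries of wild-type (WT) mice with 3 libraries of NHD13 mutant mice, which express a fusion of the nucleoporin NUP98 with the homeodomain protein HOXD13 and are used as a model of myelodysplastic syndrome. The sources used here give neither the sort markers nor the promoter that drives the fusion, and neither the age and sex of the mice nor their number per library. Nothing in the labels says that replicates came from separate animals, so p-values measure the spread between these libraries, part of which may be technical.

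Immediate early genes are transcribed within minutes of a stimulus, without new protein synthesis, when MAP kinases phosphorylate factors already bound to their promoters. FOS and JUN proteins dimerise as AP-1, and the EGR and NR4A proteins are further DNA-binding factors of this first wave. Their mRNAs are short-lived, in part because ZFP36 proteins bind AU-rich elements and recruit the deadenylation machinery. The response is limited by phosphatases of the DUSP family, which dephosphorylate MAP kinases, and by Sprouty and Spred proteins, which act upstream at the level of RAS and RAF. In blood progenitors these genes are known to respond to cytokines and also to cell isolation.

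Total counts per library ran from 12541538 to 14388772, and 1 count was worth 0.0691 to 0.0791 CPM (counts scaled to library size with TMM factors). The row named for the fusion held 0 counts in each WT library and 185, 179 and 167 in NHD13 replicates 1, 2 and 3. NHD13 replicate 1 stood apart from its group, with 2.36% of its counts in the ribosomal RNA gene Rn45s against 0.0987% to 0.209% in the other libraries, and it lay outside NHD13 replicates 2 and 3 on the side of WT for 67.7% of all tested genes. Xist was at 2.55 and 1.95 CPM in NHD13 replicates 1 and 2 and at 463 to 1080 CPM in the other libraries, and all 6 held Y-linked RNA, so that sex composition differed between libraries. Of 10 stem cell markers 7 were tested, of which Mecom rose 6.64-fold (adjusted p = 0.00105), Hlf fell 3.9-fold (0.00295) and Ly6a (Sca-1) fell 1.57-fold (0.0409). Kit, the receptor of stem cell factor, averaged 254 CPM in the WT and 227 CPM in the NHD13 libraries and, like Slamf1 and Ctnnal1, did not pass. Procr (14 WT and 7 NHD13 counts) and Fgd5 (4 and 4) were too low to test. Hoxb5 did not pass the low-count filter either, with 2 counts over the WT libraries and 24, 8 and 22 in NHD13 replicates 1 to 3. The 10 mature neutrophil genes summed to 32900 to 50900 CPM in WT and to 22500 to 31200 CPM in NHD13.

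The immediate early and feedback genes did not move as 1 block. Of the 34 genes, 28 passed the low-count filter, and of these 3 rose in NHD13 (Jund, Zfp36l1 and Gadd45a) and 4 fell (Fos, Fosl2, Spry1 and Zfp36l2) at an adjusted p under 0.05. Spry1 passed the filter through WT, where it is higher, and is counted with that limit. These 7 genes are 25.0% of those tested, where 30.3% of all 12013 tested genes passed (15.0% higher and 15.3% lower), so the share was close to the background. The median log2 change of the 28 was -0.23, against 0.001 over all tested genes, and 21 of 28 had a negative log2 change. The 3 WT and the 3 NHD13 libraries did not overlap for 12 of the 28, 3 higher and 9 lower in NHD13, where 46.1% of all tested genes did not overlap (23.5% higher and 22.6% lower). The split of calls moved with the scaling, to 2 higher and 8 lower with upper-quartile factors (11.9% and 17.7% of all genes) and to 3 higher and 7 lower with total counts (13.9% and 16.2%). DESeq2 and limma-voom each gave 3 higher and 5 lower, where 27.6% and 30.1% of all genes passed.

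**Figure D1:**
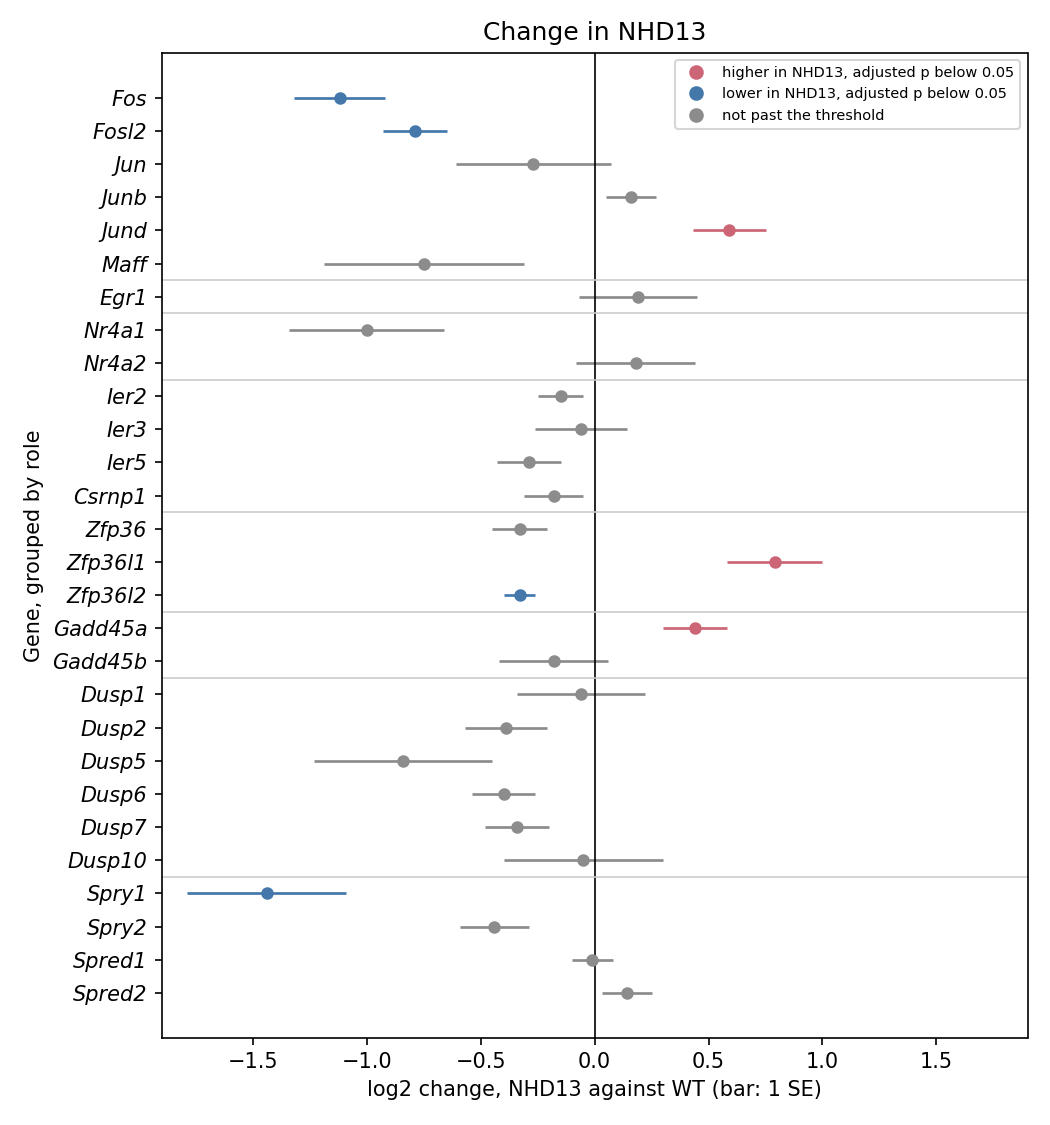
Log2 change in NHD13 against WT for the 28 tested genes, grouped by role; points are the estimates of the fit across all genes, bars are 1 SE, and colours mark genes past the threshold. Fos, Fosl2, Spry1 and Zfp36l2 lie on the negative side, Jund, Zfp36l1 and Gadd45a on the positive side, and 17 of the 21 other genes have a negative estimate.

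**Figure D2:**
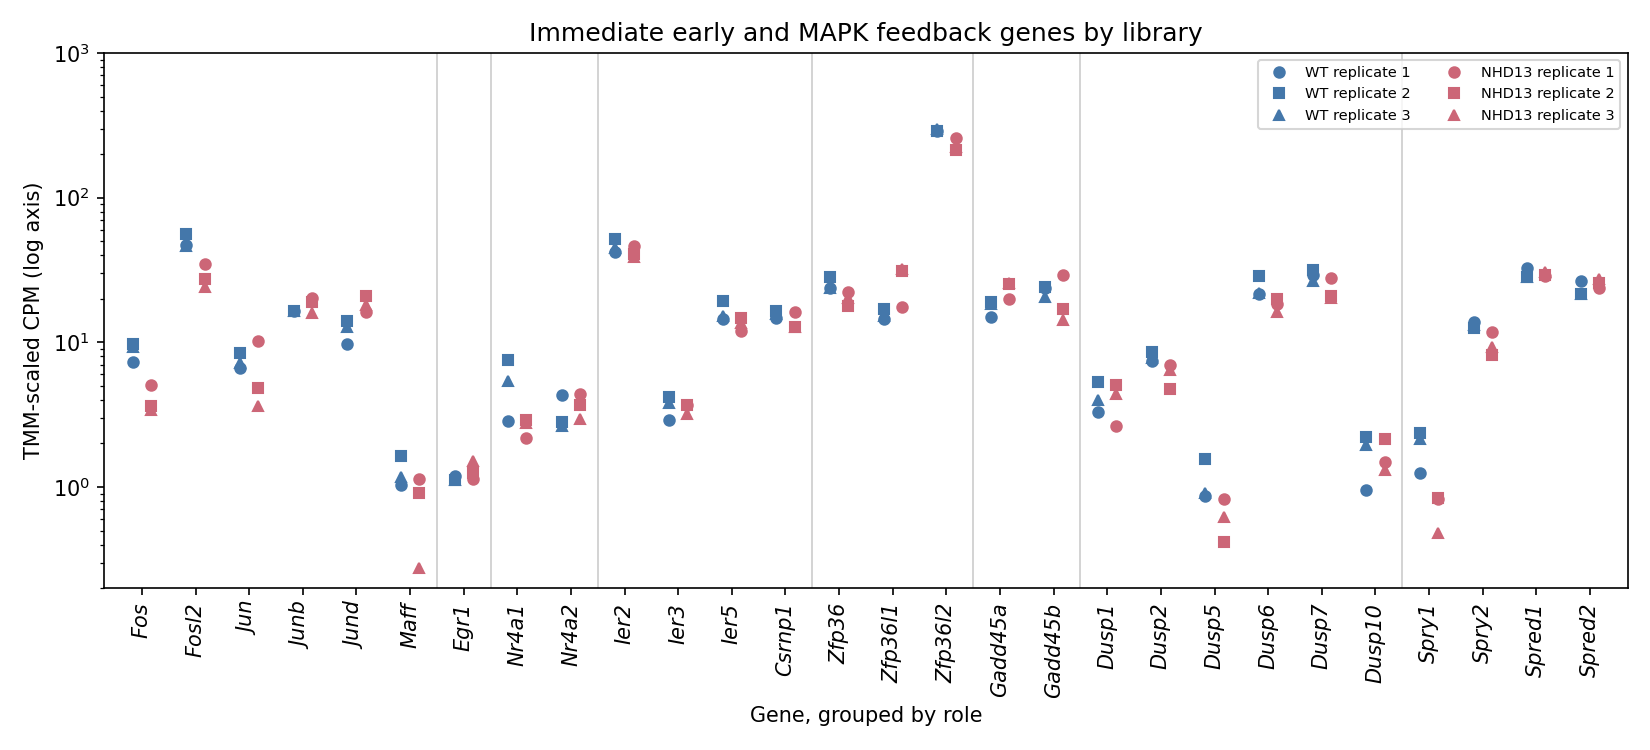
TMM-scaled CPM on a log axis for the same genes in each of the 6 libraries, with a marker shape for each replicate number. Zfp36l2 sits near 300 CPM in WT and most other genes between 1 and 60 CPM, with the groups close together for most of them.

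Among the AP-1 genes, the 2 tested FOS-family members fell. Fos, the prototype immediate early gene (GENCODE ENSMUSG00000021250.13, mm10 chromosome 12, 85473890 to 85477273), was at 7.35, 9.68 and 9.27 CPM in WT replicates 1 to 3 and at 5.10, 3.62 and 3.39 CPM in NHD13. All NHD13 libraries lay below all WT libraries, with means of 8.77 CPM ± 1.24 and 4.03 CPM ± 0.93 (SD, n = 3 each), a 2.18-fold fall (log2 -1.12, SE 0.20, edgeR adjusted p = 0.00541). Fosl2, which encodes the FOS relative FRA2 (chromosome 5, 32135801 to 32157842), was at 47.2, 55.8 and 46.6 CPM in WT and at 35.0, 27.5 and 24.2 CPM in NHD13. The groups did not overlap, and Fosl2 fell 1.73-fold (log2 -0.79, SE 0.14, adjusted p = 0.00495). These 2 calls held without any 1 library, with adjusted p between 9.78e-05 and 0.0336 for Fos and between 1.21e-05 and 0.0312 for Fosl2. Fosb, with 5 WT and 2 NHD13 counts, was too low to test.

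Of the 3 JUN genes, Jund rose and Jun and Junb did not pass. Jund, which encodes the JUN protein most associated with resting cells (chromosome 8, 70698949 to 70700616, a single exon), was at 9.72, 14.1 and 12.8 CPM in WT and at 16.3, 20.9 and 18.0 CPM in NHD13. It rose 1.5-fold without overlap of the groups (log2 0.59, SE 0.16, adjusted p = 0.0242). Jund no longer passed when WT replicate 1 (adjusted p = 0.0667) was left out, nor when WT replicate 3 (0.0741), NHD13 replicate 2 (0.102) or the third NHD13 library (0.0644) was. Junb averaged 16.5 CPM ± 0.121 in the WT and 18.4 CPM ± 2.16 in the NHD13 libraries, a log2 change of 0.16 (SE 0.11, adjusted p = 0.315). The Junb model overlaps Prdx2 on the other strand, which rose by 0.85 on the log2 scale (Prdx2 adjusted p = 0.00973), and whether counting used strand is not given here, so the reads of the 2 genes may not be fully separated. Maff, a small MAF protein, averaged 1.28 CPM in the WT and 0.769 CPM in the NHD13 libraries, a log2 change of -0.75 (SE 0.44, adjusted p = 0.229). Atf3, a stress-induced factor, was too low to test, with 15 WT and 10 NHD13 counts.

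Jun itself gave opposite pictures within NHD13. It was at 6.64, 8.49 and 7.18 CPM in WT, at 10.2 CPM in NHD13 replicate 1, and at 4.80 and 3.66 CPM in NHD13 replicates 2 and 3. Thus replicate 1 lay above every WT library and the other two below every WT library, and the change did not pass (log2 -0.27, SE 0.34, adjusted p = 0.577). Without NHD13 replicate 1 the log2 change of Jun was -0.81 (adjusted p = 0.00391). Gadd45b, an inducible stress sensor that binds MAP kinase kinases, had the same arrangement. It was at 23.9, 24.1 and 20.7 CPM in WT and at 29.3, 17.1 and 14.2 CPM in NHD13, giving a log2 change of -0.18 (SE 0.24, adjusted p = 0.584), and at a log2 change of -0.54 (adjusted p = 0.00203) without NHD13 replicate 1. For Jun the spread within NHD13, a coefficient of variation of 56.2%, was wider than in WT (12.8%), and for Gadd45b the 2 values were 39.8% and 8.34%.

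**Figure D3:**
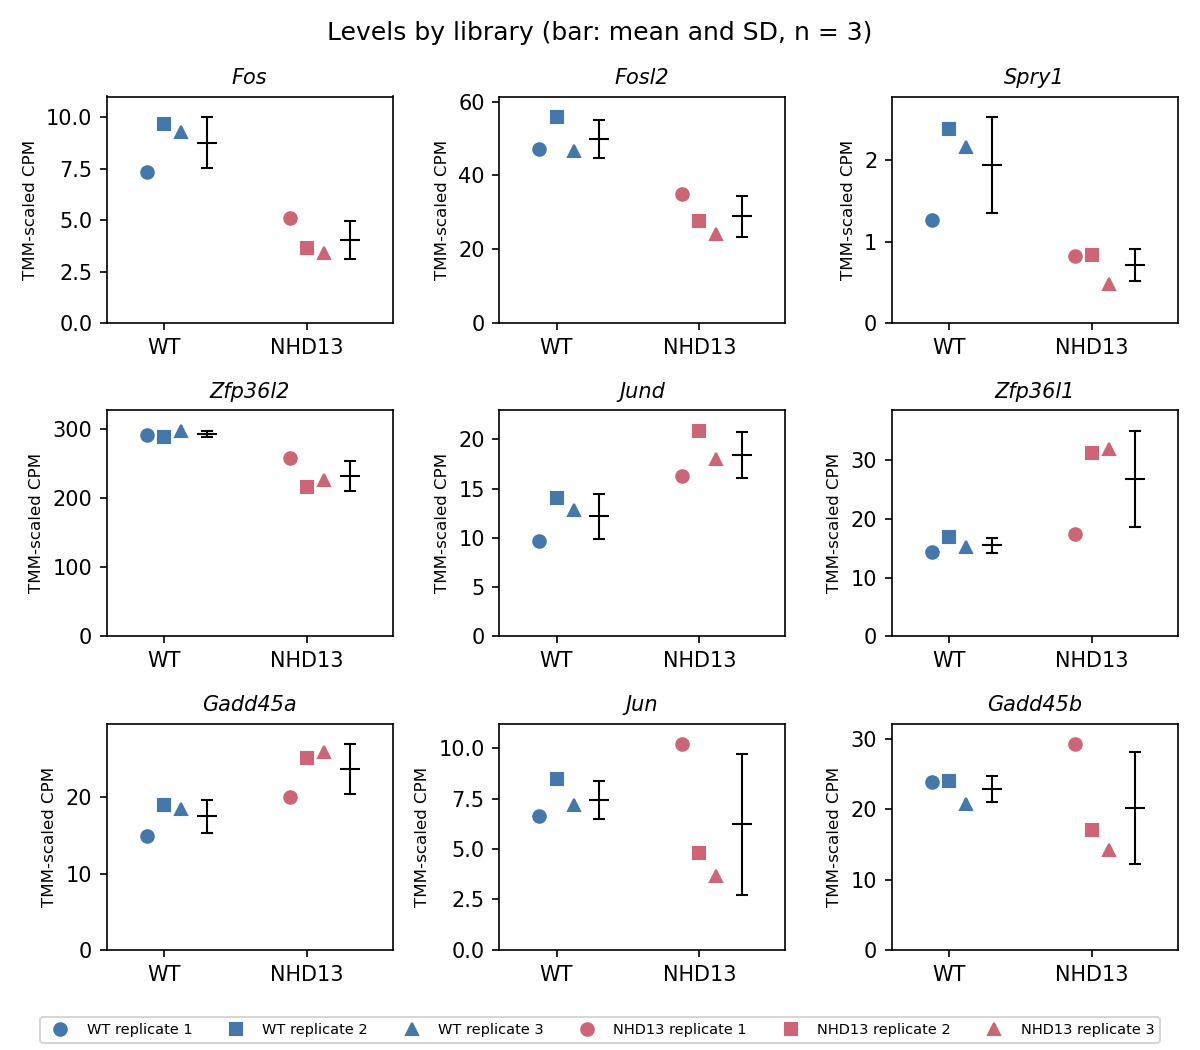
TMM-scaled CPM in each library for the 7 genes past the threshold and for Jun and Gadd45b, with a linear axis from 0; markers are libraries and black bars are the mean and SD of 3 libraries. The groups do not overlap for the first 7 genes, whereas NHD13 replicate 1 is the highest library for Jun and Gadd45b and NHD13 replicates 2 and 3 are the lowest.

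Promoter windows of 5 of the 7 genes are shown because these genes moved in opposite directions and because immediate early promoters are the place where the MAP kinase signal is read. Each window holds 250 bases before and 50 after a RefSeq start (GRCm38.p6), 5′ to 3′ on the strand of the gene. Capitals mark matches on either strand to AP-1 (TGANTCA), CRE (TGACGTCA), EGR (GCGNGGGCG), the GC box (GGGCGG), the TATA box (TATAAA) or the CArG box. The EGR and GC box motifs can overlap, and do so in Fosl2. The windows are chr12:85473640-85473939 (+) for Fos, chr5:32136222-32136521 (+) for Fosl2, chr3:37639697-37639996 (+) for Spry1, chr12:80112964-80113263 (-) for Zfp36l1 and chr6:67037358-67037657 (-) for Gadd45a. The RefSeq start is also the GENCODE start for Fos, Spry1 and Zfp36l1, and lies 671 and 50 bases inside the GENCODE gene for Fosl2 and Gadd45a. The Jund window, which holds none of these motifs, is not printed because its RefSeq start lies at -1210 bases from the GENCODE start, outside the gene model used here.
Fos: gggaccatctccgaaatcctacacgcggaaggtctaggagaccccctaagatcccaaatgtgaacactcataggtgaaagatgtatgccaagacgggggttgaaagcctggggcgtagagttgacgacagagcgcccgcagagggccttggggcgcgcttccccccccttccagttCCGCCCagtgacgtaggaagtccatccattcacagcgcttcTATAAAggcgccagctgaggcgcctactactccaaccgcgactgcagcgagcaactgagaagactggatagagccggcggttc
Fosl2: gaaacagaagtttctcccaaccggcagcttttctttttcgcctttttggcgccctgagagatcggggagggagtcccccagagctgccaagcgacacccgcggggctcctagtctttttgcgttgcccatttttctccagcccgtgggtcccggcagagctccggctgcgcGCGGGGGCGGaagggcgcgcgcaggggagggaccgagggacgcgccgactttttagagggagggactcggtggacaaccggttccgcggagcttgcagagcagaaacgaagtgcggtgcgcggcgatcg
Spry1: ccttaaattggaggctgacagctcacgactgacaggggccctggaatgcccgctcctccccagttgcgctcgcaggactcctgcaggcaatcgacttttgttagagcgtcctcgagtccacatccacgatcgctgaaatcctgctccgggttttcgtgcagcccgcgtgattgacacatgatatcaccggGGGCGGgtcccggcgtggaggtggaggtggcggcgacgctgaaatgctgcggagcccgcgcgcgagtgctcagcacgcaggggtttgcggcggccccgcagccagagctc
Zfp36l1: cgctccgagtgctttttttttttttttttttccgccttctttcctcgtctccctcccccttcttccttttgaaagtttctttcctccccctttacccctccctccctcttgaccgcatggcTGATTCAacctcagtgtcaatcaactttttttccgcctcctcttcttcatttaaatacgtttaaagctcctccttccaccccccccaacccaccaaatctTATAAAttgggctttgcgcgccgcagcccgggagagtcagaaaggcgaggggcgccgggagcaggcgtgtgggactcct
Gadd45a: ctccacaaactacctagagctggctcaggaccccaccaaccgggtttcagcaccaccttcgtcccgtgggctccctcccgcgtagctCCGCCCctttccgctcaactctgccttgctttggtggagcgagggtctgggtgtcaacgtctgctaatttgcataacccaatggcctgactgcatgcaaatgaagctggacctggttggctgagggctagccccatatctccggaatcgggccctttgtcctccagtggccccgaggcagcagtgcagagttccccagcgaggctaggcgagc

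Of these windows, those of Fos and Zfp36l1 hold a TATA box, at -33 to -28 and -29 to -24 from the start. Zfp36l1 alone of the 5 holds the AP-1 motif, at -129 to -123, and Fosl2 alone holds the EGR motif, at -79 to -71. Fos, Fosl2, Spry1 and Gadd45a each hold a GC box. RefSeq windows were found for 29 of the 34 genes, 38 windows in all since some genes have several starts. The EGR motif was in 21.1% of them against 5.55% of all 32851 windows, and the GC box in 68.4% against 35.7%. Both patterns consist almost wholly of G and C, and the windows were not matched for GC content. The median GC content of all windows was 52.7%. The printed windows held 58.7% (Fos), 64.7% (Fosl2), 64.3% (Spry1), 61% (Gadd45a) and 52% (Zfp36l1). The CArG box was in 15.8% (6 windows of 3 genes: Dusp5, Egr2 and Zfp36) against 1.63%. CRE was in 5.26% against 1.79%, the TATA box in 13.2% against 13.6% and AP-1 in 5.26% against 7.81%. A match is a run of letters and not a measured binding site. Motifs further upstream than these windows, or in the genes without a window, were not searched, so no match does not mean that a gene lacks the motif.

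The EGR and NR4A genes were low and none passed. Egr1, the zinc finger factor most often used as a readout of ERK activity, was at 1.19, 1.12 and 1.12 CPM in WT and at 1.13, 1.25 and 1.52 CPM in NHD13, with overlapping groups (log2 0.19, SE 0.26, adjusted p = 0.616). Egr2 had 16 counts in WT, 9 of them in replicate 1, and 4 in NHD13, a ratio of NHD13 to WT of 0.24 with an exact (Clopper-Pearson) 95% counting interval of 0.0583 to 0.743, and Egr3 had 2 and 0. Nr4a1, the orphan nuclear receptor NUR77, was at 2.85, 7.52 and 5.37 CPM in WT and at 2.18, 2.92 and 2.76 CPM in NHD13. NHD13 replicate 2 lay just above WT replicate 1, and the change just missed the threshold (log2 -1.0, SE 0.34, adjusted p = 0.0521). Nr4a1 did pass in DESeq2 (adjusted p = 0.0285) and when WT replicate 1 was left out (0.0118), and its log2 change was -0.65 (adjusted p = 0.192) without WT replicate 2. Nr4a2 averaged 3.28 CPM ± 0.933 in the WT and 3.69 CPM ± 0.727 in the NHD13 libraries (adjusted p = 0.628), and Nr4a3 had 2 WT counts and 0 NHD13 counts. At a floor of 3 counts, 0 counts allow up to 0.207 to 0.225 CPM in an NHD13 library, an interval for counting error only.

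The IER genes and Csrnp1 were not past the threshold in edgeR, DESeq2 or limma-voom, and none of the 4 had an unadjusted p under 0.05 in any of these. Ier2, the most abundant of them per kilobase of exon, was at 42.4, 52.0 and 45.2 CPM in WT and at 46.1, 41.0 and 39.0 CPM in NHD13, giving a log2 change of -0.15 (SE 0.10, adjusted p = 0.293). Ier3, Ier5 and Csrnp1 had log2 changes of -0.06, -0.29 and -0.18 with SE of 0.20, 0.14 and 0.13. Csrnp1 passed without NHD13 replicate 1 (log2 -0.29, adjusted p = 0.0485). The Csrnp1 model overlaps Cx3cr1 on the same strand, which fell 3.13-fold (edgeR adjusted p = 0.000346), so the reads of both genes may not be fully separated.

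The ZFP36 family split between 2 close relatives. Zfp36l2 (chromosome 17, 84183931 to 84187947) had the highest level of the 34 genes per kilobase, at 82.6 CPM per kilobase of exon in WT, ahead of Ier2 at 30.6. It was at 290, 288 and 297 CPM in WT and at 257, 215 and 225 CPM in NHD13, a 1.26-fold fall without overlap (log2 -0.33, SE 0.07, adjusted p = 0.0129). Zfp36l2 did not pass when WT replicate 3 (adjusted p = 0.0623) was left out, nor when NHD13 replicate 2 (0.0565) or the third NHD13 library (0.0529) was. Zfp36l1 (chromosome 12, 80107754 to 80113013) was at 14.4, 17.0 and 15.3 CPM in WT, 17.5 CPM in NHD13 replicate 1 and 31.3 and 32.0 CPM in NHD13 replicates 2 and 3. NHD13 replicate 1 was only just above WT and the other two were far above it, and the fitted rise was 1.73-fold (log2 0.79, SE 0.21, adjusted p = 0.0241). Without NHD13 replicate 1 it was 1.03 on the log2 scale (adjusted p = 3.65e-06), and the call was lost without any other 1 library (adjusted p = 0.0701 to 0.0891). Zfp36 (tristetraprolin), the inducible member, averaged 25.2 CPM ± 2.82 in the WT and 20 CPM ± 2.23 in the NHD13 libraries, with no overlap and an adjusted p of 0.0664. Zfp36 passed with upper-quartile factors (adjusted p = 0.0494) and without NHD13 replicate 1 (0.00958). These 3 genes each overlap a gene model on the other strand, so a share of their counts is uncertain.

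Gadd45a, a p53 target that activates p38 and JNK signalling (chromosome 6, 67035096 to 67037457), rose where Gadd45b did not pass. It was at 14.9, 19.0 and 18.5 CPM in WT and at 20, 25.2 and 25.9 CPM in NHD13, a 1.36-fold rise without overlap (log2 0.44, SE 0.14, adjusted p = 0.0404). The call was lost with upper-quartile factors (adjusted p = 0.0607) and without any 1 library other than NHD13 replicate 1 (0.0758 to 0.149). Without NHD13 replicate 1 it was 0.55 on the log2 scale (adjusted p = 0.0013). Like the ZFP36 genes, Gadd45a overlaps a gene model on the other strand, as do Jund and Spry1, so a share of their counts is uncertain.

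None of the 6 tested DUSP genes passed in the main edgeR fit, DESeq2 or limma-voom. All 6 had a negative log2 change, and Dusp6 and Dusp7 had an unadjusted p under 0.05 in edgeR (2 genes of the 6 in DESeq2 and 3 in limma-voom). Dusp6, the cytoplasmic ERK phosphatase that is itself an ERK target, was at 21.5, 28.7 and 22.1 CPM in WT and at 18.5, 19.8 and 16.3 CPM in NHD13. The groups did not overlap and the change just missed the threshold (log2 -0.40, SE 0.14, adjusted p = 0.0533). Its relative Dusp7 averaged 29.1 CPM ± 2.65 in the WT and 22.9 CPM ± 4.13 in the NHD13 libraries, a log2 change of -0.34 (SE 0.14, adjusted p = 0.0847). Of the nuclear phosphatases, Dusp2 (log2 -0.39, SE 0.18) and Dusp5 (log2 -0.84, SE 0.39) did not overlap between groups and Dusp1 (log2 -0.06, SE 0.28) did, with adjusted p of 0.121, 0.13 and 0.896. Dusp10, which acts on p38 and JNK, had a log2 change of -0.05 (SE 0.35), and Dusp4 had 4 WT and 9 NHD13 counts. Without NHD13 replicate 1, Dusp6 (adjusted p = 0.0307), Dusp7 (0.00138) and Dusp2 (0.031) passed as lower. With all 6 libraries, Dusp6 passed in edgeR with upper-quartile factors (adjusted p = 0.0412), total counts (0.0439) or no low-count filter (0.0431). With the replicate number as a block, Dusp6 (adjusted p = 0.018) and Dusp7 (0.0402) passed.

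Of the 4 Sprouty and Spred genes, Spry1 fell and the other three did not pass in the main edgeR fit. Spry1, an inhibitor of receptor tyrosine kinase signalling to ERK (chromosome 3, 37639947 to 37644598), was at 1.26, 2.38 and 2.16 CPM in WT and at 0.825, 0.835 and 0.484 CPM in NHD13. The groups did not overlap, and the fitted log2 change was -1.44 (SE 0.35, adjusted p = 0.0167), 2.71-fold lower, from 79 WT and 30 NHD13 counts. For Spry1, Dusp5 and Maff all 3 libraries reached 10 counts in WT alone, so these genes passed the filter through the group where they are high, and their tests support less than those of the other 25 genes. Spry1 did not pass when WT replicate 2 (adjusted p = 0.0726) was left out, nor when WT replicate 3 (0.0703) or the third NHD13 library (0.0644) was. Spry2 was at 13.8, 12.6 and 13.2 CPM in WT and at 11.7, 8.21 and 9.26 CPM in NHD13, with no overlap and an adjusted p of 0.0517 (log2 -0.44, SE 0.15). It passed under 6 of 15 alternatives, among them limma-voom (adjusted p = 0.0432), upper-quartile factors (0.0401) and the fit without NHD13 replicate 1 (0.00215). Spred1 (29.8 CPM ± 2.27 and 29.5 CPM ± 0.851) and Spred2 (23.3 CPM ± 2.86 and 25.7 CPM ± 1.79) had log2 changes of -0.01 (SE 0.09) and 0.14 (SE 0.11), neither past the threshold.

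The number of genes called depended on NHD13 replicate 1. For 20 of the 28 tested genes it lay outside NHD13 replicates 2 and 3 on the side of WT, close to the 67.7% of all tested genes. The 20 include Jun and Gadd45b, for which it lay above every WT library. The median log2 ratio of the 28 genes to the WT mean was -0.12 in NHD13 replicate 1, -0.28 in replicate 2 and -0.31 in replicate 3. Without it, 3 genes were higher and 12 lower, where 48.7% of all tested genes passed (24.5% higher and 24.2% lower). The 12 were Fos, Fosl2, Jun, Csrnp1, Dusp2, Dusp6, Dusp7, Gadd45b, Spry1, Spry2, Zfp36 and Zfp36l2. With only replicates 2 and 3 of both groups, 4 were higher and 16 lower, at a background of 53.3%. Leaving out WT replicate 1, 2 or 3 gave 0, 1 and 0 higher and 5, 3 and 2 lower genes, at backgrounds of 23.1%, 14.7% and 14.7%. Leaving out NHD13 replicate 2 or 3 gave 0 higher and 3 and 2 lower genes, at backgrounds of 15.0% and 15.9%. Fos and Fosl2 were among the lower genes in each case. With a covariate for the Y-linked share of counts none of the 7 calls held (adjusted p = 0.0972 to 0.275) and 2.38% of all genes passed. The 7 log2 changes then were -1.0 for Fos, -0.86 for Fosl2, -1.17 for Spry1, -0.32 for Zfp36l2, 0.73 for Jund, 0.98 for Zfp36l1 and 0.67 for Gadd45a. On a scale common to all libraries, the Y-linked share was 194, 109 and 113 in WT replicates 1 to 3. It was 248, 280 and 177 in NHD13 replicates 1 to 3. The covariate thus overlapped with group and added a term to a fit of only 6 libraries. Neither a lost nor a kept call in that fit shows whether sex composition played a part.

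Markers of several maturing blood cell types moved with the groups. Of 10 mature neutrophil genes 8 fell, where 15.3% of all tested genes did. Of 8 tested monocyte and macrophage genes 7 fell, from a sum of 1770 to 2020 CPM in WT to 808 to 1230 CPM in NHD13. Mast cell and basophil genes summed to 225 to 532 CPM in WT and 19.8 to 42.5 CPM in NHD13 (5 of 6 tested fell), and dendritic cell genes to 108 to 170 and 24.4 to 37.3 CPM (6 of 8 fell and 1 rose). Erythroid genes summed to 213 to 269 CPM in WT and 295 to 567 CPM in NHD13. Of the 5 tested, 2 were higher, where 15.0% of all genes were. Megakaryocyte and platelet sums overlapped, at 66.5 to 79.2 CPM in WT and 59.2 to 77.4 CPM in NHD13 (1 of 7 tested higher and 1 lower). So did T and NK cell sums, at 182 to 245 and 127 to 234 CPM (1 of 4 tested lower, Ncr1). For Ncr1, and for Fcer1a, Siglech and Itgax among the lower genes above, all 3 libraries reached 10 counts in WT alone. They passed the filter through the group where they are high, so these counts of lower genes follow in part from the filter. No marker of these lists with a row was at 0 in every library. Their part in the changes of Fos, Fosl2, Spry1 and the other genes was not tested, and in bulk RNA fewer cells of a type and less RNA per cell cannot be told apart. Of 13 tested heat shock genes, which encode chaperones, 6 rose, where 15.0% of all genes did, and 0 fell in edgeR, DESeq2 and limma-voom. With the Y-linked covariate 0 of them passed. The list was chosen with earlier results known, so the share supports nothing about heat shock genes as a group. At an unadjusted p under 0.05, 7 were higher and 0 lower in edgeR. Hsph1, a co-chaperone of HSP70, had means of 126 CPM ± 20.1 in WT and 231 CPM ± 34.8 in NHD13, a 1.83-fold rise (adjusted p = 0.00316), and the mitochondrial chaperonin gene Hspd1 rose 1.47-fold (adjusted p = 0.00338).

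Of 27 tested other immediate early genes 1 rose and 7 fell (29.6%, against 30.3% of all genes), with a median log2 change of -0.22. Klf4, a zinc finger factor of monocytes and quiescent cells, was at 27.7, 29.6 and 28.9 CPM in WT and at 12.8, 8.07 and 6.15 CPM in NHD13, a 3.20-fold fall (SE 0.22 on the log2 scale, adjusted p = 0.00156) that also passed with the Y-linked covariate (adjusted p = 0.0425). The kinase gene Sgk1 fell 1.82-fold, the antiproliferative gene Btg1 1.42-fold and Klf6 1.41-fold (adjusted p = 0.00704, 0.00865 and 0.0155). Klf6 did not pass when WT replicate 2 (adjusted p = 0.0666), WT replicate 3 (0.0619) or the third NHD13 library (0.0537) was left out. Ppp1r15a (GADD34), a subunit that directs dephosphorylation of eIF2alpha and the only one that rose, averaged 11.6 CPM ± 0.713 in the WT and 19.6 CPM ± 4.83 in the NHD13 libraries (adjusted p = 0.0163) and is named here after its values were seen.

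In the cascades upstream, the shares of genes past the threshold lay near the 30.3% of all genes. Of 29 tested genes of the ERK cascade 4 rose and 6 fell (34.5%), with a median log2 change of -0.01. Gab1, a docking protein that couples receptors to SHP2 and RAS, rose 2.07-fold from 14 CPM ± 1.92 to 29.1 CPM ± 8.19 (adjusted p = 0.00803), the ERK-activated kinase gene Mknk2 rose 1.42-fold (0.00517) and Map2k2, which encodes MEK2, rose 1.34-fold (0.00585). Rasa3, a GTPase-activating protein for RAS and RAP1, fell 1.37-fold (adjusted p = 0.0057). Of 17 tested genes of the JNK and p38 cascades 4 fell (23.5%), namely Map3k5, which encodes the kinase ASK1 (1.75-fold, adjusted p = 0.00169), Mapkapk2 (1.41-fold, 0.028), Rps6ka5 (1.36-fold, 0.0129) and Map3k1 (1.25-fold, 0.0155). None of them rose in edgeR or DESeq2 and 1 did in limma-voom, with 3 higher at an unadjusted p under 0.05 in edgeR. Among 18 regulators of immediate early transcription 1 rose and 3 fell (22.2%). Elk3, an ETS partner of SRF, fell 1.87-fold (34.1 CPM ± 0.942 in WT, 18.3 CPM ± 4.09 in NHD13, adjusted p = 0.00356), Mef2c fell 1.45-fold and Mef2a 1.28-fold, and Crem rose 1.51-fold (adjusted p = 0.0257). Several of these calls were lost when 1 library was left out. Without any 1 library other than NHD13 replicate 1, fewer of all genes passed too (14.7% to 23.1%, against 30.3%). Crem did not pass when WT replicate 1, 2 or 3 was left out (adjusted p = 0.0664, 0.0683 and 0.0992), nor when NHD13 replicate 2 was (0.115). Mapkapk2 did not pass without the low-count filter (adjusted p = 0.0557) or without any 1 library other than NHD13 replicate 1 (0.0726 to 0.0993). Map3k1 was lost when WT replicate 2 or 3 or NHD13 replicate 2 or 3 was left out (adjusted p = 0.06 to 0.0656), and Mef2a when WT replicate 2 or 3 or NHD13 replicate 3 was (0.0622 to 0.0825). Rps6ka5 was lost when WT replicate 3 (adjusted p = 0.055) or NHD13 replicate 2 (0.054) was left out, and Mef2c when WT replicate 3 was (0.0514).

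A further list outside the 34 held other phosphatase and Sprouty family genes, with signalling regulators such as Socs2 and the RGS genes. Of its 13 tested genes 8 passed (61.5%, against 30.3% of all genes), with 4 in each direction. The list was chosen with earlier results known, so the share supports nothing about these genes as a group. Dusp16, a JNK and p38 phosphatase, rose 2.12-fold (4.65 CPM ± 0.158 in WT, 9.85 CPM ± 2.05 in NHD13, adjusted p = 0.00457), and the cytokine signalling inhibitor gene Socs2 had 13 WT and 58 NHD13 counts. No WT library reached 10 counts of Socs2, which passed the filter through NHD13 alone, so its place among the 4 higher genes follows in part from the filter. Dusp22 was at 3.08, 5.21 and 3.62 CPM in WT and at 0.750, 1.11 and 0.898 CPM in NHD13, a 4.27-fold fall (adjusted p = 0.00205). Rgs2, a GTPase activator for G alpha subunits, fell 1.89-fold (85.8 CPM ± 4.73 in WT, 45.4 CPM ± 3.88 in NHD13, adjusted p = 0.000289) and stayed past the threshold with the Y-linked covariate (adjusted p = 0.0242). Spry4 was higher (1.53 CPM ± 0.526 and 3.27 CPM ± 0.861, adjusted p = 0.0276), opposite to Spry1, and is named after its values were seen.

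**Figure D4:**
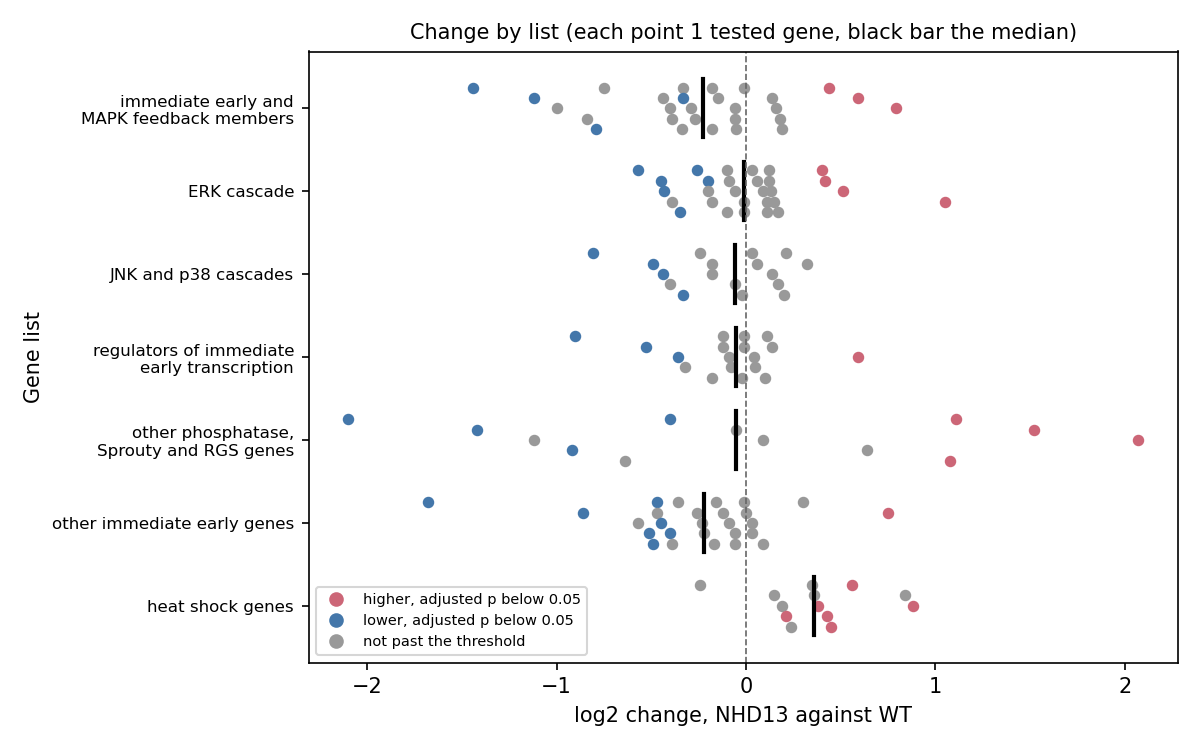
Log2 change in NHD13 against WT for every tested gene of the 28 and of 6 further lists, with each point a gene, colours for genes past the threshold and a black bar for the list median. The medians are -0.23 for the immediate early and feedback genes, -0.22 for other immediate early genes, 0.36 for heat shock genes and between -0.06 and -0.01 for the other lists.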

How the data were processed

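RNA was measured in 6 libraries, 3 WT and 3 NHD13. The deposited table holds raw counts per gene, not normalised by the authors. The submitters' processing notes name the build mm10 and the tools HTSeq 0.5.4p3 and Bowtie2 2.2.1, while the gene annotation is not given in the sources used here, nor is the use of strand in counting. Each column was assigned to its sample through its name, and 0 columns were left out. The genes and lists were chosen with earlier results of these data known.

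The fit used edgeR 4.0.16 in R 4.3.3 across all genes: filterByExpr with a minimum count of 10 (12013 genes kept, 5510 set aside), TMM factors, a robust quasi-likelihood F test with group as the only term, two-sided, and Benjamini-Hochberg adjustment over all genes tested with a threshold of 0.05. An SE was obtained as the absolute log2 change over the root of the F statistic, and CPM use TMM factors. Total counts of 12541538 to 14388772 make 1 count worth 0.0691 to 0.0791 CPM, and intervals and floors cover counting error only, since reads carry no molecular identifiers. Replicates of a group differed by more than sampling noise (chi-square per degree of freedom 3.46 to 28.3, over genes whose counts sum to 10 or more), so all were kept apart. Alternatives were RLE, upper-quartile and no scaling factors, no filter, DESeq2 1.42.0, limma-voom (limma 3.58.1), a replicate block, the Y-linked share as a covariate, and leaving out libraries.

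Named were all 34 genes, and of each further list up to 4 genes past the threshold with the lowest p. Hras was found as Hras1, and Spry3, Egr4 and Cyr61 were not found. Positions and exon lengths are from GENCODE vM21 (GRCm38, which is mm10). Of the 34 genes, 13 overlap another gene on the other strand, and of these Csrnp1 and Dusp1 also overlap a gene on the same strand. Promoter windows are RefSeq, GRCm38.p6.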

Additional observations from a re-analysis of the deposited data

How the results depend on the processing

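Fos and Fosl2 stayed past the threshold under 14 of 15 alternatives, Spry1 and Zfp36l2 under 11, Jund under 10, Zfp36l1 under 9 and Gadd45a under 8, each with the same direction throughout. Leaving out 1 library gave 0 to 3 higher and 2 to 12 lower genes of the 34, with a median log2 change of -0.35 to -0.13, and 760 to 3012 higher and 957 to 2966 lower genes of all. In the further lists the genes past the threshold then were 4 to 16 (ERK cascade), 1 to 10 (JNK and p38), 1 to 6 (transcription regulators), 7 to 9 (other phosphatase and Sprouty family genes), 3 to 15 (other immediate early genes) and 4 to 7 (heat shock genes). With only replicates 2 and 3 of both groups these were 4 higher and 16 lower of the 34, a median of -0.37, 3244 and 3245 of all genes, 17 for the ERK cascade, 10 for JNK and p38 and 18 for other immediate early genes. Lower genes of the 34 numbered 8 with upper-quartile factors and 7 with total counts. With the replicate number as a block there were 8 lower genes of the 34 (2233 of all genes) and 7 genes of the JNK and p38 list. Same-numbered libraries deviated together with r = 0.249, 0.063 and 0.175 across genes, and NHD13 replicate 2 correlated best with WT replicate 3 (0.149), so the numbers were not taken to pair the samples. With a covariate for the Y-linked share 111 genes were higher and 175 lower, 0 and 0 of the 34. Then 0 passed in the ERK cascade, JNK and p38, transcription regulator and heat shock lists, and 1 each in the other phosphatase and Sprouty family list and the other immediate early list. Because that share overlapped with group, these counts do not separate sex composition from group.

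Signs turned for genes with estimates near 0, none past the threshold in the main fit. Of them Gadd45b passed as lower without NHD13 replicate 1 and with only replicates 2 and 3 of both groups, where its sign had not turned. With the covariate Ier3 was at 0.06, Dusp1 at 0.18, Dusp10 at 0.13 and Nr4a2 at -0.37. With only replicates 2 and 3, Dusp1 was at 0.03 and Spred1 at 0.07. Leaving out 1 library, Ier3 ran from -0.20 to 0.05, Dusp1 from -0.27 to 0.17, Dusp10 from -0.35 to 0.18, Spred1 from -0.05 to 0.03 and Gadd45b from -0.54 to 0.01. The cause was not tested. The 6 genes not tested had at most 9 counts in any library, and only for Egr2 did the counting interval of the ratio (0.0583 to 0.743) lie away from 1, which covers counting error and not the spread between libraries.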

Other observations

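Some further immediate early genes were too low to test in this population. Ptgs2, the inducible cyclooxygenase, had 4 counts in WT and 3 in NHD13, Arc had 6 and 3, and Fosl1 had 0 and 1. Batf3, an AP-1 factor known for its role in dendritic cells, had 17 counts in WT and 0 in NHD13.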
